A study of Mus musculus with 10 samples.

Results

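The genes of the heat shock response and of the unfolded protein response were followed in the kidney cortex of mice with aristolochic acid nephropathy (AAN), as 103 of the 21792 genes with values. Members were set by gene name, with earlier results of these data known. Of them, 86 belonged by symbol to the heat shock protein families (Hspa, Hspb, Hspd, Hspe, Hsph and Hsp90), the J proteins (Dnaja, Dnajb and Dnajc), the protein disulfide isomerases (Pdia) or the BAG proteins. The 17 others were the regulators *Hsf1*, *Ern1*, *Eif2ak3*, *Atf6*, *Atf4*, *Ddit3* and *Atf3*, the ATF4 targets *Trib3*, *Chac1* and *Ppp1r15a*, and *Canx*, *Calr*, *Hyou1*, *Manf*, *Creld2*, *Sdf2l1* and *Herpud1* of the endoplasmic reticulum (ER). Of the 103 members, 99 had a mean of at least 0.1 FPKM (fragments per M sequenced and per kilobase of the gene) over the 10 mice and were tested. *Dnajb7*, *Hspb9* and the pseudogenes *Hspa9-ps1* and *Hspd1-ps4* were below that mean.

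All mice were wild-type males of the C57BL/6 strain, aged 8 weeks at injection. The 4 sham mice received PBS, and the 6 AAN mice received aristolochic acid, a plant toxin that injures the proximal tubule, as a single intraperitoneal dose of 5 mg/kg. Cortex was taken at day 28 and 1 library was sequenced per mouse, with no pooling, from 15.8 to 17.5 M fragments in sham mice and 13.4 to 16.5 M in AAN mice. The labels name no batch, and they pair no sham mouse with an AAN mouse. A cortex sample mixes all cell types, so fewer cells of a type and less RNA per cell cannot be told apart.

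Cells keep proteins folded with chaperones that are made in larger amounts under stress. In the cytosol and nucleus, the factor HSF1 drives inducible Hsp70, Hsp90, Hsp110, small heat shock proteins and their J protein partners, which feed clients to Hsp70. In the ER, misfolded proteins activate the sensors IRE1 (*Ern1*), PERK (*Eif2ak3*) and ATF6, which raise ER chaperones, disulfide isomerases and degradation factors. PERK also slows translation and lets the factor ATF4 be made, and ATF4 induces CHOP (*Ddit3*), *Atf3*, *Trib3* and *Chac1*. Mitochondria use their own set, with mtHsp70 (*Hspa9*), Hsp60 (*Hspd1*) and Hsp10 (*Hspe1*).

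The tissue label fitted the markers of sham cortex, where *Slc34a1*, the phosphate transporter of the proximal tubule, was at 2008 ± 627 FPKM (SD, n = 4). In AAN mice the levels of cell type markers were different. Of 6 proximal tubule markers, 4 were lower and none higher (median log2 fold change -1.42). Of the distal markers none of 2 (thick limb) and none of 4 (distal tubule and collecting duct) passed, at medians of -0.60 and -0.42, and none of 2 podocyte or 3 endothelial markers did, at 0.32 and 0.19. After scaling by the median of ratios, which set the middle of all genes near 0, all 6 proximal tubule, 1 thick limb, 2 distal and 1 endothelial markers were lower. The 4 injured tubule markers, the 4 fibroblast and myofibroblast markers, the 3 macrophage, 3 T cell and 3 leukocyte markers and the 8 immediate early genes were all higher, with medians of 6.53, 2.28, 3.81, 5.11, 4.74 and 1.99, and so were the 4 B and plasma cell markers tested (2.38) and 2 of 3 smooth muscle markers. Under the median of ratios 3 of the 4 fibroblast, 3 of the 4 B and plasma cell and 4 of the 8 immediate early genes passed as higher, 2 smooth muscle markers were higher and 1 lower, and the injured tubule, macrophage, T cell and leukocyte markers were all higher. The leukocyte markers, of which *Cd52* was the most abundant, summed to 5.20 to 8.93 FPKM in sham and 82.7 to 316 FPKM in AAN mice. The injured tubule markers, led by *Havcr1*, which was listed at 0 in 1 sham mouse, summed to 1.16 to 1.86 FPKM against 105 to 324 FPKM. The part of these cells in the results below was not tested.

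A pair of mice stood apart from their groups in the genes described here. In sham mouse B607 the summed level of the 6 proximal tubule markers was 3781 FPKM, against 1666 to 2799 FPKM in the other sham mice. In AAN mouse B614 the sum was 1970 FPKM, against 529 to 883 FPKM in the other AAN mice, and its injured tubule markers summed to 105 FPKM, the lowest of the AAN mice. In both mice, genes with over 8000 exonic bases stood 0.54 log2 units above genes of at most 1000 bases, relative to the mean of all mice, and in the 8 others this difference ran from -0.34 to 0.08. For the members whose call changed without either mouse, the values with and without it are given.

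Among the 99 members tested, 16 rose and 4 fell in AAN mice, at a limma adjusted p of at most 0.05 and a change of at least 2-fold. Of all 17129 genes tested, 35.8% rose and 3.43% fell by the same limits, against 16.2% and 4.04% of the members. Values of every AAN mouse lay above those of every sham mouse for 22 members (40.3% of all genes tested) and below them for 6 members (3.25%). The members that rose were *Atf3*, *Trib3*, *Chac1*, *Ppp1r15a*, *Eif2ak3*, *Hspb1*, *Hspb2*, *Hspb8* and the J protein genes *Dnajb3*, *Dnajb5*, *Dnajb13*, *Dnajc8*, *Dnajc9*, *Dnajc10*, *Dnajc17* and *Dnajc27*. The members that fell were *Hspa1a*, *Hsph1*, *Hspd1* and *Dnajc12*.

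On the deposited scale the median gene had a log2 fold change of 0.75, and the median member one of 0.38. Thus 74 of the 99 members had a log2 fold change below that of the median gene. The 13 mitochondrially encoded genes held between 39.5% and 61.4% of all FPKM in the sham group, against 21.4% to 55.0% in the AAN group. With equal totals of all other genes the median gene was at 0.77. After scaling by the median of ratios, which brought the median of all genes to 0.05, 6 members were higher and 20 lower (18.8% and 10.7% of all genes), with a member median of -0.37. After quantile normalization (median of all genes -0.12), 4 were higher and 15 lower (14.4% and 12.1% of all genes). A pseudocount of 1 in place of 0.1 left 6 higher and 4 lower (17.0% and 2.45% of all genes), since it shrinks changes of low genes. With no fold limit, 35 were higher and 12 lower (55.4% and 6.00% of all genes). Without B607 the counts were 17 and 2 (38.8% and 3.04% of all genes), without B614 17 and 6 (37.4% and 4.11%), and without both 17 and 3 (39.8% and 3.67%). Of the 65 members above 0 as deposited, 39 were below 0 under the median of ratios and 33 under quantile normalization, and none turned the other way. All 4 members that fell as deposited were lower under both scalings. A further 16 were lower by both limits under the median of ratios, namely *Hspa1b*, *Hspa1l*, *Hspa8*, *Hsp90aa1*, *Dnaja1*, *Dnaja4*, *Dnajb1*, *Hspa9*, *Hspe1*, *Dnaja3*, *Dnajc19*, *Dnajc6*, *Dnajc22*, *Dnajc28*, *Dnajc19-ps* and *Hspd1-ps3*. Under quantile normalization a further 11 were, namely *Hspa1b*, *Hspa1l*, *Dnaja1*, *Dnaja4*, *Dnajb2*, *Dnajc19*, *Dnajc6*, *Dnajc22*, *Dnajc28*, *Dnaja1-ps* and *Dnajc19-ps*. The pseudogene *Dnaja1-ps* was near the floor, at 0.0889 to 0.197 FPKM in sham and 0.0946 to 0.116 FPKM in AAN mice. Its log2 fold change was -0.10 as deposited. Of the 16 that rose, *Atf3*, *Hspb1* and *Hspb8* kept their call under both scalings, and *Trib3* and *Hspb2* under the median of ratios. *Dnajb13* also passed under both, but it was listed at 0 in all 4 sham mice. It was tested only because of its level in AAN mice, so its direction was fixed beforehand.

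**Figure D1:**
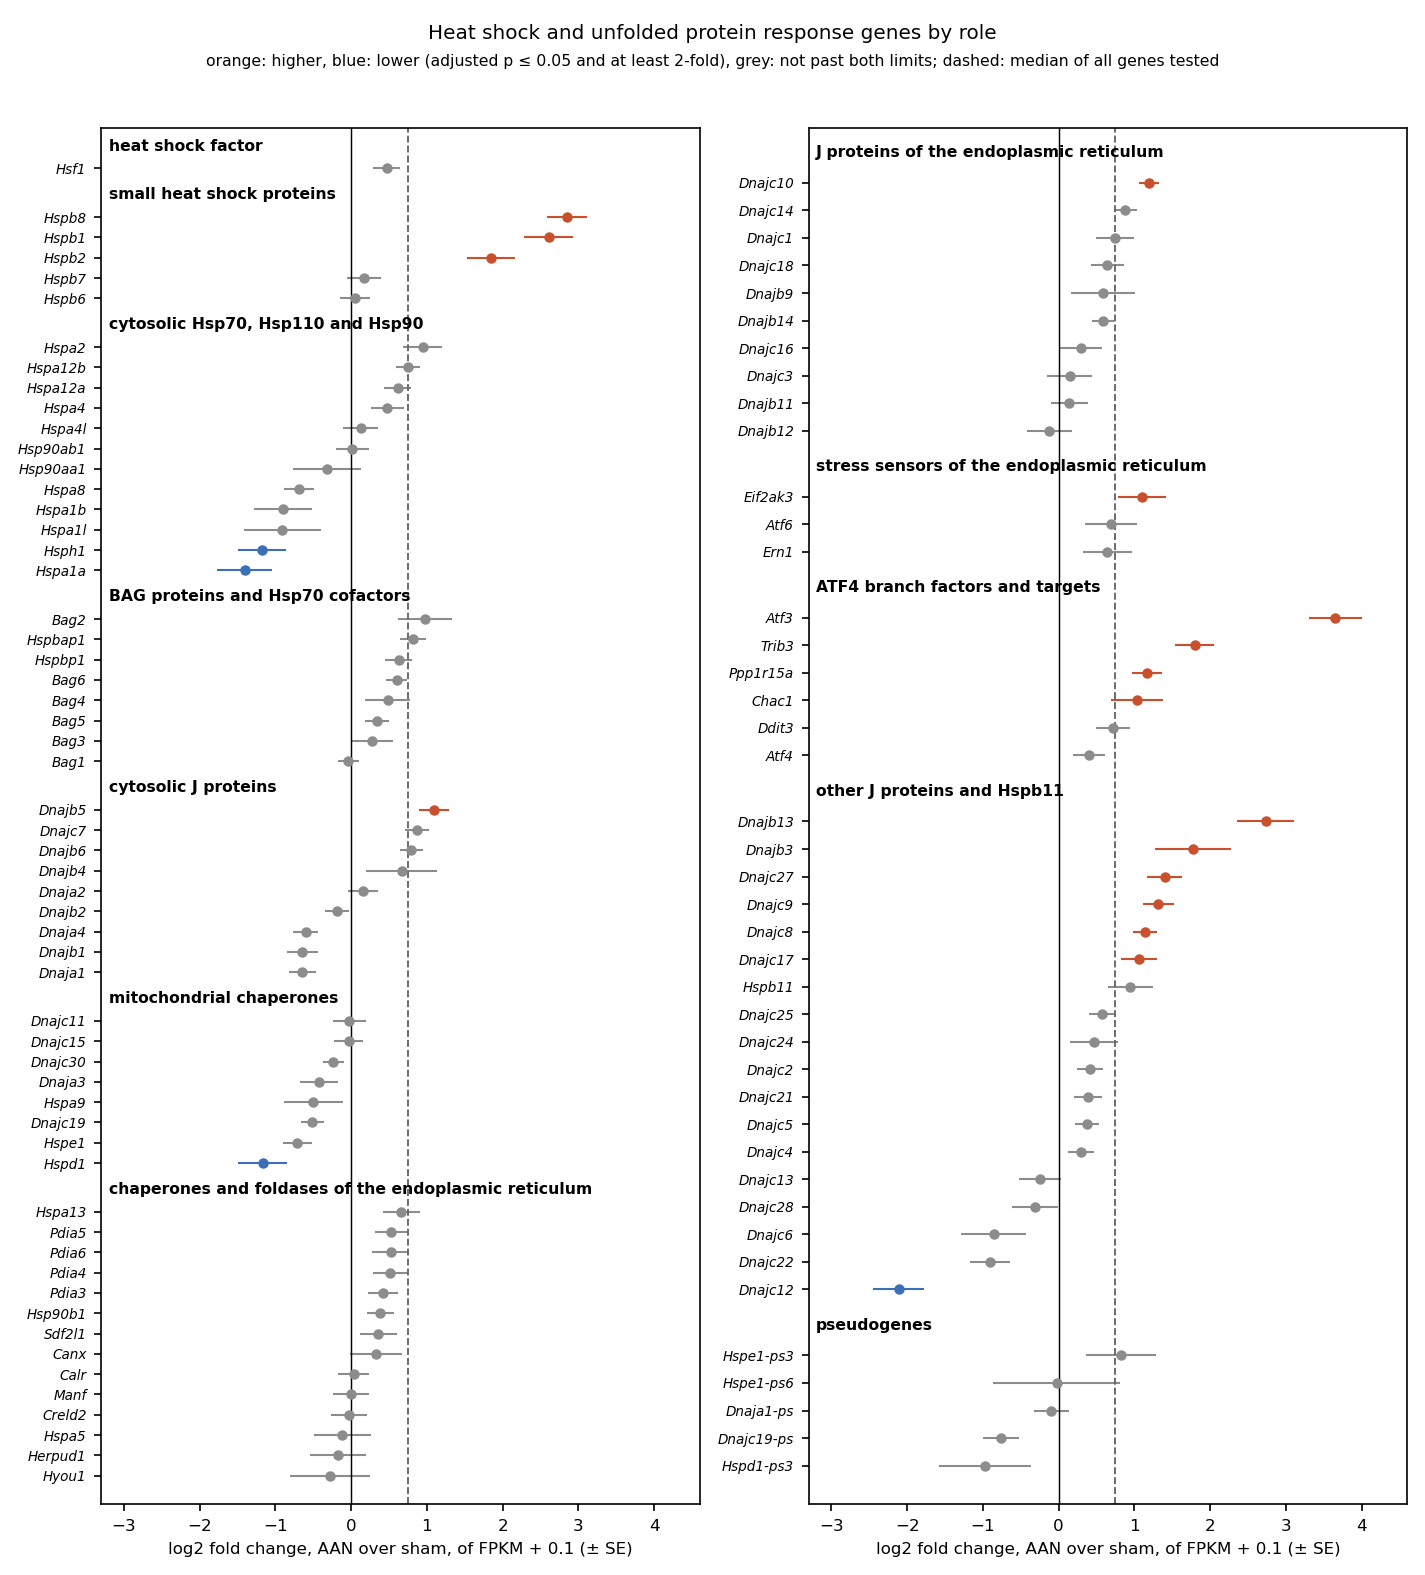
Log2 fold change in AAN over sham mice of FPKM + 0.1 (x axis, with the standard error as a bar) for the 99 members tested, in blocks by role (y axis). The dashed line is the median of all genes tested (0.75), and 74 members lie to its left; *Atf3* at 3.65 and *Dnajc12* at -2.11 are the ends of the range.

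The small heat shock proteins, which hold unfolding proteins without using ATP, had the highest median log2 fold change of the 12 blocks of members (1.85), and 3 of the 5 tested rose, beside 35.8% of all genes. The counts were 3 under the median of ratios and 2 under quantile normalization, beside 18.8% and 14.4% of all genes. *Hspb1* (Hsp27) was at 6.64, 8.85, 8.45 and 8.24 FPKM in the sham mice, and in the AAN mice the lowest was 18.6, the median 59.4 and the highest 66.9 FPKM. The groups did not overlap, and the AAN mouse nearest to the sham mice was B614. *Hspb1* was 6.62-fold higher by the ratio of the means, with a log2 fold change of 2.61 ± 0.32 (SE; limma adjusted p = 3.02e-05). *Hspb8*, a partner of BAG3 in the removal of damaged proteins, was at 1.96, 2.17, 1.65 and 3.10 FPKM in sham mice and at 10.3 to 23.0 FPKM in AAN mice (median 16.8). Again no AAN mouse overlapped with the sham mice. Its log2 fold change was 2.85 ± 0.26 (limma adjusted p = 2.74e-06), and both genes kept their direction and both limits under the median of ratios (1.85 and 2.11) and quantile normalization (2.14 and 2.05).

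*Hspb2*, which lies next to *Cryab* and overlaps 1 gene of the files, rose from 0.595 ± 0.137 (SD, n = 4) to 2.55 ± 1.07 FPKM (SD, n = 6), with a log2 fold change of 1.85. It did not pass under quantile normalization (0.69, limma adjusted p = 0.109). *Hspb6* and *Hspb7*, which are best known from muscle, had log2 fold changes of 0.06 and 0.16 and did not pass; they were -0.67 and -0.56 under the median of ratios and -0.99 and -0.80 under quantile normalization. *Cryab*, the alpha B-crystallin of the same protein family, was listed among the co-chaperones. It was at 21.5 to 62.3 FPKM in sham mice and 79.9 to 261 FPKM in AAN mice and rose by 2.53 ± 0.36 on the log2 scale (limma adjusted p = 0.000102).

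The gene of HSF1, whose protein is mainly controlled after translation, was at 11.9, 13.3, 14.4 and 15.8 FPKM in sham mice and at 13.2 to 24.2 FPKM in AAN mice (median 19.8). The AAN mouse at 13.2 FPKM was B614, within the sham range. *Hsf1* had a log2 fold change of 0.47 ± 0.18 (limma adjusted p = 0.0377), under the 2-fold limit, and it was -0.29 under the median of ratios and -0.02 under quantile normalization. Without B607 it was 0.40 (adjusted p = 0.0916) and without B614 0.57 (adjusted p = 0.00418); of the other mice left out singly, H249 alone left the adjusted p at or below 0.05.

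Of the 12 cytosolic Hsp70, Hsp110 and Hsp90 genes tested, none rose and 2 fell with all mice, with a median log2 fold change of -0.15, beside 35.8% and 3.43% of all genes. Under the median of ratios none rose and 6 fell, beside 18.8% and 10.7% of all genes. *Hspa1a*, an inducible Hsp70, was at 21.9, 13.0, 10.01 and 4.35 FPKM in the sham mice, with B607 the highest, and at 3.04 to 5.14 FPKM in the AAN mice (median 3.97). The sham mouse at 4.35 FPKM, H249, lay within the AAN range, and the other sham mice were above it. *Hspa1a* fell by 1.41 ± 0.36 on the log2 scale (limma adjusted p = 0.00523), and without B607 by 1.06 (adjusted p = 0.0136). It overlaps 1 gene of the files, and its sequence is close to those of *Hspa1b* and *Hspa1l*, so its share of the fragments is uncertain.

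*Hspa1b*, the neighbouring inducible copy, was at 31.8, 13.2, 9.38 and 6.49 FPKM in sham mice and 4.46 to 9.44 FPKM in AAN mice (median 6.99). The groups overlapped, and B607 again was far above the rest. Its log2 fold change of -0.90 ± 0.39 did not pass (limma adjusted p = 0.0604). Without B607 it was -0.46 (adjusted p = 0.187), and without H249, the lowest sham mouse, it was -1.22 and passed both limits (adjusted p = 0.0175). It also passed both under the median of ratios (-1.66, adjusted p = 0.00297) and quantile normalization (-1.52, adjusted p = 0.00411). *Hsph1*, the Hsp110 that exchanges the nucleotide of Hsp70, was at 19.1, 6.15, 8.19 and 8.71 FPKM in sham mice and 2.54 to 5.88 FPKM in AAN mice (median 4.64). Every AAN mouse was below every sham mouse. It fell by 1.17 ± 0.32 on the log2 scale (limma adjusted p = 0.00746); without B607 the change was -0.85 (adjusted p = 0.0177), under the 2-fold limit.

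*Hspa8*, the constitutive Hsc70 and the most abundant cytosolic Hsp70, was at 256, 248, 262 and 311 FPKM in sham mice and 117 to 223 FPKM in AAN mice (median 170). No AAN mouse reached the sham range, and B607 was in the middle of the sham mice for this gene. It changed by -0.69 ± 0.20 on the log2 scale (limma adjusted p = 0.0103), which is under the 2-fold limit; it was -1.45 under the median of ratios and -0.75 under quantile normalization. *Hsp90aa1*, the inducible Hsp90, was at 54.6, 19.2, 11.1 and 45.7 FPKM in sham mice and 12.5 to 33.8 FPKM in AAN mice (median 25.5). The sham values spanned the AAN values, and the log2 fold change was -0.32 ± 0.45 (limma adjusted p = 0.543), but it passed both limits under the median of ratios (-1.08, adjusted p = 0.0427). *Hsp90ab1*, the constitutive Hsp90, was at 149 to 308 FPKM in sham mice and 174 to 266 FPKM in AAN mice, with a log2 fold change of 0.02 ± 0.22 that turned to -0.75 under the median of ratios and to -0.03 under quantile normalization.

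*Hspa2*, an Hsp70 best known from testis, was the member of this block with the highest fold change, 0.94 ± 0.26 (limma adjusted p = 0.0074), which did not reach 2-fold. Without B607, at 3.29 FPKM against 1.28 to 1.73 FPKM in the other sham mice, it passed both limits (1.21, adjusted p = 0.000593), but it was 0.21 under the median of ratios and 0.01 under quantile normalization. The atypical *Hspa12a* and *Hspa12b* lay above the sham mice in all 6 AAN mice, at log2 fold changes of 0.61 and 0.75, which became -0.14 and 0.04 under the median of ratios and -0.18 and -0.36 under quantile normalization.

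The plot of single genes by mouse shows B607 at the top of the sham mice for *Hspa1a*, *Hsph1* and *Hspd1* and within or below them for *Hspb1*, *Hspb8* and *Hspa8*.

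**Figure D2:**
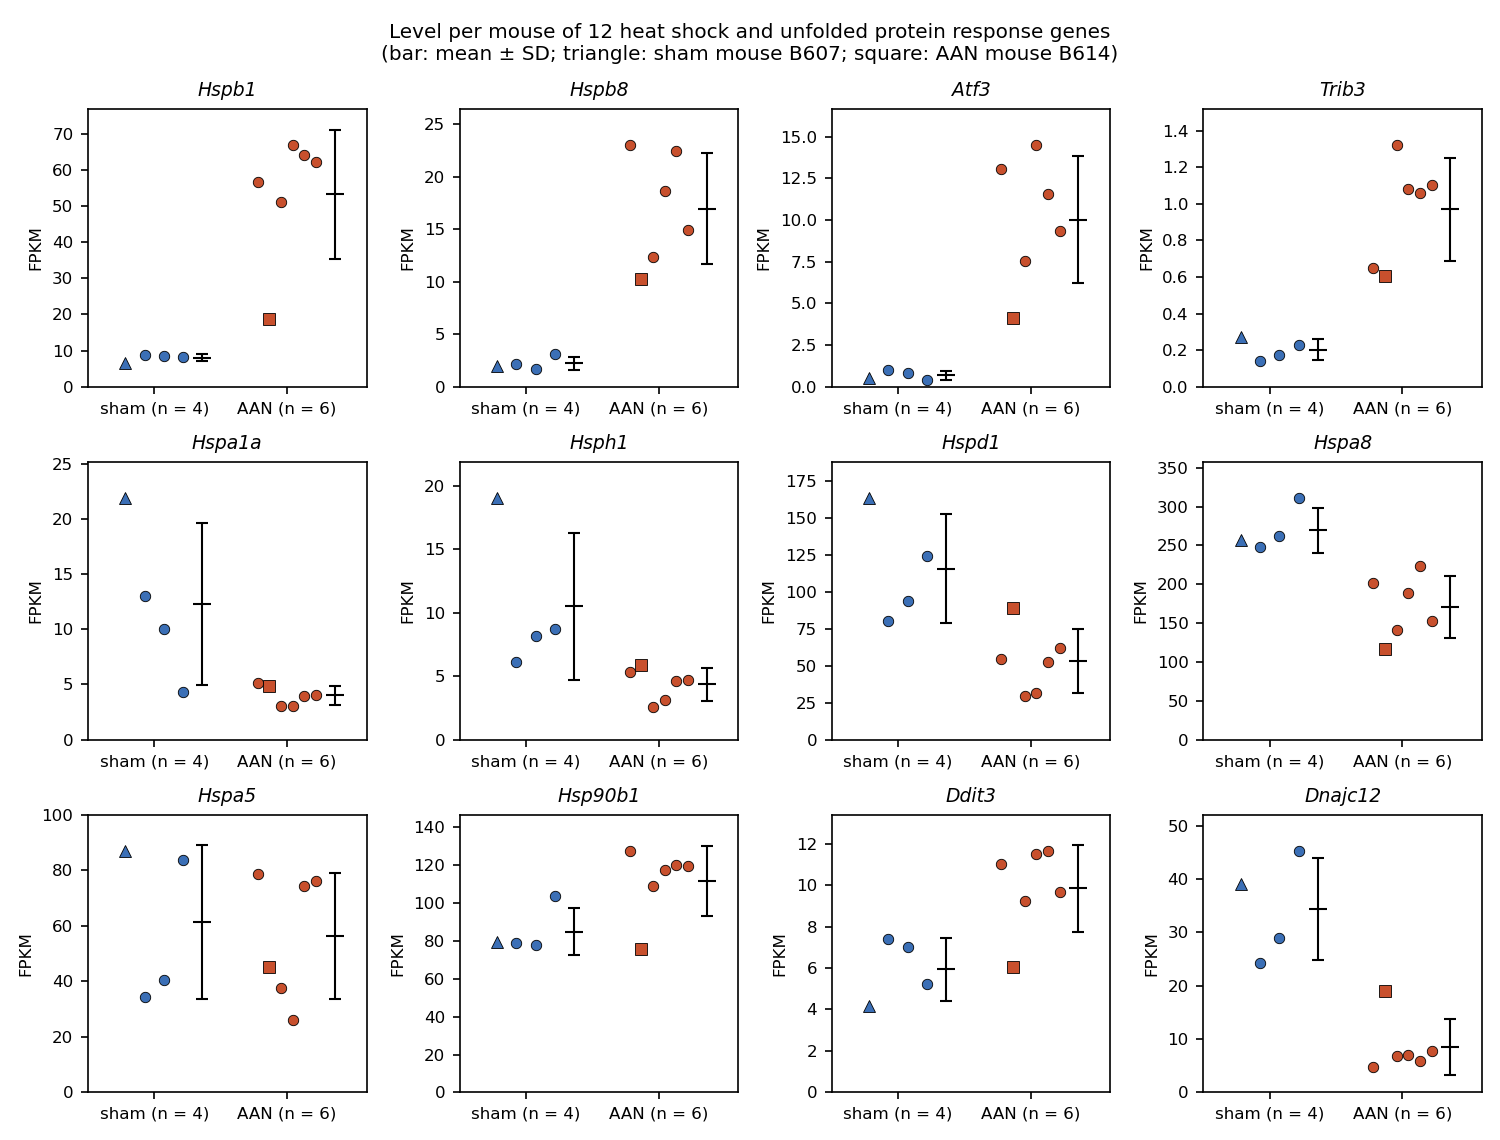
FPKM (y axis) of 12 genes in each sham mouse (blue) and each AAN mouse (orange), with the mean ± SD as a bar; the triangle is sham mouse B607 and the square AAN mouse B614. The groups are apart for *Hspb1*, *Hspb8*, *Atf3*, *Trib3*, *Hsph1*, *Hspa8* and *Dnajc12*, and they overlap for *Hspa1a*, *Hspd1*, *Hspa5*, *Hsp90b1* and *Ddit3*.

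J proteins pick clients for Hsp70 and stimulate its ATPase. Of the 9 cytosolic J protein genes, *Dnajb5* rose and none fell by 2-fold, beside 35.8% of all genes higher and 3.43% lower. *Dnajb5* went from 0.862 ± 0.144 to 1.96 ± 0.351 FPKM (log2 fold change 1.09 ± 0.20, limma adjusted p = 0.000544). Under the median of ratios none of the block rose and 3 fell, beside 18.8% and 10.7% of all genes. The counts were the same under quantile normalization, beside 14.4% and 12.1% of all genes. The increase of *Dnajb5* was lost under the median of ratios (0.39) and turned to -0.039 under quantile normalization, and without sham mouse B634 it was 0.98. *Dnajb1* (Hsp40), the main HSF1-driven J protein, was at 47.1, 36.5, 30.8 and 29.8 FPKM in sham mice and 15.5 to 30.3 FPKM in AAN mice (median 23.1). Only AAN mouse B642, at 30.3 FPKM, reached the sham range. For *Dnajb1*, *Dnaja1* and *Dnaja4* the log2 fold changes were -0.64, -0.65 and -0.60, with adjusted p of 0.0171, 0.00787 and 0.00735 by limma, all under the 2-fold limit as deposited, and -1.41, -1.40 and -1.35 under the median of ratios. Without B607 *Dnajb1* was at -0.51 (adjusted p = 0.0529). *Dnajb6*, which keeps aggregation-prone proteins soluble, and *Dnajc7* were above the sham mice in all 6 AAN mice, at log2 fold changes of 0.79 and 0.87, which became 0.05 and 0.11 under the median of ratios and -0.05 and 0.40 under quantile normalization.

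The BAG proteins release nucleotide, and so client, from Hsp70. None of the 8 genes of this block passed both limits with all mice, beside 35.8% of all genes higher and 3.43% lower. *Bag2* was at 1.65 to 4.89 FPKM in sham mice, with B607 the highest, and 3.40 to 9.25 FPKM in AAN mice, and its log2 fold change of 0.98 (limma adjusted p = 0.0313) became 1.22 without B607 (adjusted p = 0.0136), past both limits, and 0.85 without B614 (adjusted p = 0.0571). It was 0.24 under the median of ratios. *Bag3*, the HSF1-driven member that works with HSPB8, was at 20.7, 7.71, 8.53 and 9.04 FPKM in sham mice and 8.63 to 15.2 FPKM in AAN mice (median 13.6). B607 was above every AAN mouse, and the other sham mice were at the lower end of the AAN range or below it. The log2 fold change was 0.27 ± 0.27 with all mice (limma adjusted p = 0.4) and 0.60 without B607 (adjusted p = 0.0212), but -0.48 under the median of ratios (adjusted p = 0.0891) and -0.30 under quantile normalization. *Bag6*, which guards tail-anchored proteins, and *Hspbap1* were above the sham mice in all 6 AAN mice, at log2 fold changes of 0.60 and 0.81, which became -0.16 and 0.08 under the median of ratios and 0.02 and -0.15 under quantile normalization.

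All 8 mitochondrial chaperone genes had log2 fold changes below 0, from -1.17 to -0.02, with a median of -0.46. As deposited 1 passed both limits, under the median of ratios 5 and under quantile normalization 2, each time as lower, beside 3.43%, 10.7% and 12.1% of all genes. *Hspd1* (Hsp60) was at 163, 80.4, 93.6 and 124 FPKM in sham mice and 29.2 to 88.9 FPKM in AAN mice (median 53.6). The AAN mouse at 88.9 FPKM was B614, above the lowest sham mouse, and the 5 others were below all sham mice. *Hspd1* fell by 1.17 ± 0.32 on the log2 scale (limma adjusted p = 0.00738), and without B607 the change of -0.98 (adjusted p = 0.0249) was just under the 2-fold limit. *Hspe1* (Hsp10), its partner, was at 83.0, 107, 124 and 95.5 FPKM in sham mice and 43.4 to 78.5 FPKM in AAN mice (median 64.9). The groups did not overlap, and the log2 fold change was -0.71 ± 0.19 (limma adjusted p = 0.00718). The change of *Hspe1* was -1.47 under the median of ratios and -0.74 under quantile normalization.

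*Hspd1* and *Hspe1* lie head to head on chromosome 1 and overlap each other, and the pseudogene *Hspd1-ps3* (18.5 ± 12.5 FPKM in AAN mice) and others resemble them, so the split of fragments between them is uncertain. *Hspa9* (mtHsp70) was at 153, 53.4, 67.3 and 111 FPKM in sham mice and 32.9 to 119 FPKM in AAN mice (median 71.0). The groups overlapped, and its log2 fold change of -0.50 ± 0.39 did not pass (limma adjusted p = 0.28), but it was -1.26 under the median of ratios and passed both limits (adjusted p = 0.00937). *Dnajc19*, of the import motor, had a log2 fold change of -0.51 (limma adjusted p = 0.013), under the 2-fold limit, and passed both limits under the median of ratios (-1.27) and quantile normalization (-1.12).

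A strict heat shock element, 3 alternating units written as GAANNTTCNNGAA, was looked for on both strands of the RefSeq promoter windows, 250 bases before to 50 after each start site (GRCm38.p6). It was in 0.603% of all 32851 windows and in 6 of the 96 windows of members. Those 6 windows belonged to 4 of the 78 members with a window. These were *Hspd1*, *Hspe1*, *Hsph1* and *Dnajb6*. The matches are shown because *Hsph1*, *Hspd1* and *Hspe1* had log2 fold changes below 0. *Dnajb6* went the other way as deposited, at 0.79 (limma adjusted p = 0.000783), and was 0.05 under the median of ratios and -0.05 under quantile normalization. *Hspd1* and *Hspe1* share theirs, on chr1:55088059-55088071 between their start sites and inside annotated exons, next to a second, overlapping match, and that of *Hsph1* is on chr5:149636288-149636300, after its start site. Capitals mark the whole match, each on the strand of its gene.
*Hspd1* (minus strand): GAAGGTTCTAGAA
*Hspe1* (plus strand): TTCTAGAACCTTC
*Hsph1* (minus strand): TTCTGGAAAGTTC

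A match describes the letters in the window and not the binding of a factor.

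Among the chaperones and foldases of the ER, none of the 14 genes passed both limits, beside 35.8% of all genes higher and 3.43% lower. By the adjusted p alone 2 passed as higher, beside 55.4% of all genes, and all 14 had a log2 fold change below that of the median gene. *Hspa5* (BiP), the Hsp70 of the ER and the usual readout of the unfolded protein response, was at 87.1, 34.5, 40.4 and 83.9 FPKM in sham mice and 26.1 to 78.8 FPKM in AAN mice (median 59.8). In both groups mice lay on either side of a gap between 45.1 and 74.5 FPKM, and the log2 fold change was -0.12 ± 0.38 (limma adjusted p = 0.795). *Hsp90b1* (GRP94) was at 79.3, 78.7, 78.0 and 104 FPKM in sham mice and 75.9 to 128 FPKM in AAN mice (median 118). The AAN mouse at 75.9 FPKM was B614, below all sham mice, and the other AAN mice were above them all. The log2 fold change was 0.38 ± 0.18 (limma adjusted p = 0.0789) and 0.49 without B614 (adjusted p = 0.00729), but -0.38 under the median of ratios.

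*Calr*, the soluble lectin chaperone calreticulin, was the most abundant gene of the block with a mean of 287 ± 55.1 FPKM in the sham group (SD, n = 4) against 295 ± 59.7 FPKM in the AAN group (SD, n = 6). Its membrane-bound relative *Canx* was at 38.3 ± 17.9 and 46.4 ± 14.8 FPKM, a log2 fold change of 0.33 that was -0.43 under the median of ratios. The disulfide isomerases *Pdia3*, *Pdia4*, *Pdia5* and *Pdia6* had log2 fold changes of 0.42, 0.52, 0.53 and 0.52, of which that of *Pdia5* passed the adjusted p (limma, 0.0443) without reaching 2-fold. All 4 were below 0 under the median of ratios, with -0.35 for *Pdia3* and -0.24 for *Pdia6*, and under quantile normalization they were 0.39, 0.32, -0.06 and 0.31 in the same order. *Hyou1*, *Herpud1*, *Creld2* and *Manf*, strongly induced in cells with acute ER stress, had log2 fold changes of -0.28, -0.17, -0.026 and -0.0018; *Manf* overlaps 4 other genes of the files. These 4 genes were at -1.02, -0.94, -0.79 and -0.76 under the median of ratios, where *Hspa5* was -0.88 (adjusted p = 0.0411). Under quantile normalization *Hyou1*, *Herpud1*, *Creld2* and *Manf* were -1.11, -0.51, -0.34 and -0.44, and *Hspa5* was -0.30 (adjusted p = 0.468), none past the adjusted p. *Hyou1* was at 12.3 FPKM in B607 and at 2.03 to 5.06 FPKM in the other sham mice, against 1.52 to 5.81 FPKM in AAN mice.

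The ER stress response element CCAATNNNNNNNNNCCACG, a site of NF-Y and ATF6, was in 7 of the 96 promoter windows of members and in 0.119% of all windows, read on both strands. The members were 7 of the 78 with a window (*Hspa5*, *Hsp90b1*, *Calr*, *Canx*, *Pdia6*, *Creld2* and *Dnajc3*). None of these 7 genes passed the limits. The stretches around 3 of the matches and the match of *Hspa5*, chr2:34772025-34772043, are shown because these genes share the element and share the absence of a call. Capitals mark the element, and each sequence is printed 5′ to 3′ on the strand of the gene. The whole stretches are at chr8:84847050-84847118 for *Calr*, chr12:17266466-17266534 for *Pdia6* and chr10:86705613-86705681 for *Hsp90b1* (GRCm38.p6).
*Hspa5* (plus strand): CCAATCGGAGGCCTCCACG
*Hsp90b1* (minus strand): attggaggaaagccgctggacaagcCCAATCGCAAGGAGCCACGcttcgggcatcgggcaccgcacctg
*Pdia6* (plus strand): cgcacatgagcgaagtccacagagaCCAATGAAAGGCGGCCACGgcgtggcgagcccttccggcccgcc
*Calr* (minus strand, element on the other strand): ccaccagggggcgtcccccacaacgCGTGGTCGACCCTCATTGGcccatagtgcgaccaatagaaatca

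The J proteins of the ER were nearer to the median gene, with a median log2 fold change of 0.59 over 10 genes. *Dnajc10* (ERdj5), a reductase that opens disulfides of proteins bound for degradation, was at 7.09, 5.80, 5.77 and 6.15 FPKM in sham mice and 12.5 to 15.5 FPKM in AAN mice (median 14.5). The groups were far apart, with little spread in either. *Dnajc10* rose by 1.19 ± 0.13 on the log2 scale (limma adjusted p = 1.23e-05), and by 0.44 and 0.56, under the 2-fold limit, after the median of ratios and quantile normalization. *Dnajb9* (ERdj4), a target of XBP1, was at 30.9, 7.68, 8.14 and 17.7 FPKM in sham mice and 10.02 to 31.1 FPKM in AAN mice (median 24.3), a log2 fold change of 0.59 ± 0.42 (limma adjusted p = 0.239) that was 0.98 without B607 (adjusted p = 0.043) and 0.32 without sham mouse B634, and -0.17 under the median of ratios. *Dnajc3* (p58IPK), which restrains PERK, was at a log2 fold change of 0.15 and did not pass; it was -0.61 under the median of ratios (adjusted p = 0.048) and -0.32 under quantile normalization.

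Levels of the 3 sensors varied between the mice of a group. *Eif2ak3* (PERK) was at 5.95, 1.55, 2.42 and 3.41 FPKM in sham mice and 4.44 to 7.71 FPKM in AAN mice (median 7.09). B607 lay within the AAN range and the other sham mice below it. *Eif2ak3* rose by 1.10 ± 0.31 on the log2 scale (limma adjusted p = 0.00942), but by 0.36 under the median of ratios (adjusted p = 0.258), and by 0.80, under the 2-fold limit, without sham mouse B634. *Ern1* and *Atf6* had log2 fold changes of 0.64 ± 0.32 and 0.69 ± 0.34 and did not pass (limma adjusted p = 0.104 and 0.0952), and both turned below 0 under the median of ratios and quantile normalization. For each of the 3 sensors, B607 was the highest sham mouse, and for all 3 B614 was the highest AAN mouse, with *Atf6* at 8.49 FPKM and *Ern1* at 4.47 FPKM. Without B607, *Atf6* reached both limits (log2 fold change 1.03, limma adjusted p = 0.0106), and *Ern1* passed the adjusted p but stayed under 2-fold (0.99, adjusted p = 0.00729).

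Of the 6 genes of the ATF4 branch, 4 rose as deposited, beside 35.8% of all genes. The counts were 2 under the median of ratios and 1 under quantile normalization, beside 18.8% and 14.4% of all genes. *Atf4* itself was at 81.1, 70.0, 78.3 and 66.4 FPKM in sham mice and 55.6 to 118 FPKM in AAN mice (median 107). B614 was below every sham mouse and the 5 other AAN mice were above them all. The log2 fold change of *Atf4* was 0.40 ± 0.21 (limma adjusted p = 0.113) with B614 and 0.57 without it (adjusted p = 0.00172), and it was -0.36 under the median of ratios. ATF4 is largely set by translation, which RNA levels do not show.

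*Atf3*, a stress-induced repressor and partner of AP-1 factors, was the member with the largest increase. It was at 0.512, 1.01, 0.806 and 0.402 FPKM in sham mice and 4.13 to 14.5 FPKM in AAN mice (median 10.4), 14.7-fold higher by the ratio of the means. The lowest AAN mouse, B614, was still above all sham mice. The log2 fold change was 3.65 ± 0.35 (limma adjusted p = 3.77e-06), and it was 2.94 under the median of ratios and 2.60 under quantile normalization. All 8 immediate early genes listed rose too as deposited, among them *Junb* by 3.75 and *Egr1* by 3.69 on the log2 scale. Under the median of ratios 4 of the 8 rose, with *Junb* and *Egr1* both at 2.99. *Atf3* also answers to those signals, and the part of either was not tested.

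*Trib3*, a pseudokinase that binds ATF4 and CHOP, was at 0.270, 0.139, 0.172 and 0.230 FPKM in sham mice and 0.603 to 1.32 FPKM in AAN mice (median 1.07). The groups did not overlap, but the levels were low in all 10 mice. It rose by 1.79 ± 0.25 on the log2 scale (limma adjusted p = 8.99e-05) and did not pass under quantile normalization (0.57, adjusted p = 0.0746). *Ppp1r15a* (GADD34), which lets translation resume, rose from 2.49 ± 0.235 to 5.84 ± 1.31 FPKM, with a log2 fold change of 1.17 ± 0.20 (limma adjusted p = 0.000307) that was 0.43 under the median of ratios (adjusted p = 0.106). *Chac1*, which degrades glutathione, was at 0.140, 0.154, 0.519 and 0.333 FPKM in sham mice and 0.348 to 1.09 FPKM in AAN mice (median 0.626). The groups overlapped, its log2 fold change was 1.04 ± 0.34 (limma adjusted p = 0.0199), and it turned to -0.21 under quantile normalization. Its call was lost without B607 (0.84, adjusted p = 0.0619), and also without B634, B630 or B666.

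*Ddit3* (CHOP), the pro-apoptotic factor of the branch, was at 4.14, 7.38, 7.02 and 5.22 FPKM in sham mice and 6.03 to 11.6 FPKM in AAN mice (median 10.3). B614 was within the sham range, and the other AAN mice were above it. Its log2 fold change of 0.72 ± 0.23 passed the adjusted p (limma, 0.0152) but not 2-fold, and it was -0.03 under the median of ratios.

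The composite element TGATGCAA, which a C/EBP protein and ATF4 occupy together, was in 0.895% of all promoter windows and in 3 of the 96 windows of members. It was found in 3 members, *Atf3*, *Chac1* and *Herpud1*, each time on the strand opposite to the gene. These 3 are shown together because *Atf3* and *Chac1* rose and *Herpud1*, with a log2 fold change of -0.17 ± 0.37, did not. The palindrome TGACGTCA, a cAMP response element, was in 1.79% of all windows and in 2 of the 96 windows of members. Those were of *Ppp1r15a* and *Dnajc27*, which both rose as deposited. The similar TGACGTGG shares its first letters with that palindrome, and its other strand holds the CCACG of the ER stress response element. It was in 0.676% of all windows and in 1 of the 96 windows of members, that of *Dnajc25*. Capitals mark the element, and the stretches are chr1:191183411-191183468, chr2:119351024-119351081, chr8:94386292-94386349 and chr7:45526269-45526305 (GRCm38.p6, RefSeq windows). That of *Atf3* lies before an internal start site, in an intron of its longer transcripts, and the others lie upstream of their genes.
*Atf3* (minus strand): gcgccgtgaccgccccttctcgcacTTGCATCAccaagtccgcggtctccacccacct
*Chac1* (plus strand): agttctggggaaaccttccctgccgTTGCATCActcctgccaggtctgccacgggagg
*Herpud1* (plus strand): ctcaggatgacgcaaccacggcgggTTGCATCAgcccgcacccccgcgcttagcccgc
*Ppp1r15a* (minus strand): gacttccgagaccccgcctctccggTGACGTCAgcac

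**Figure D3:**
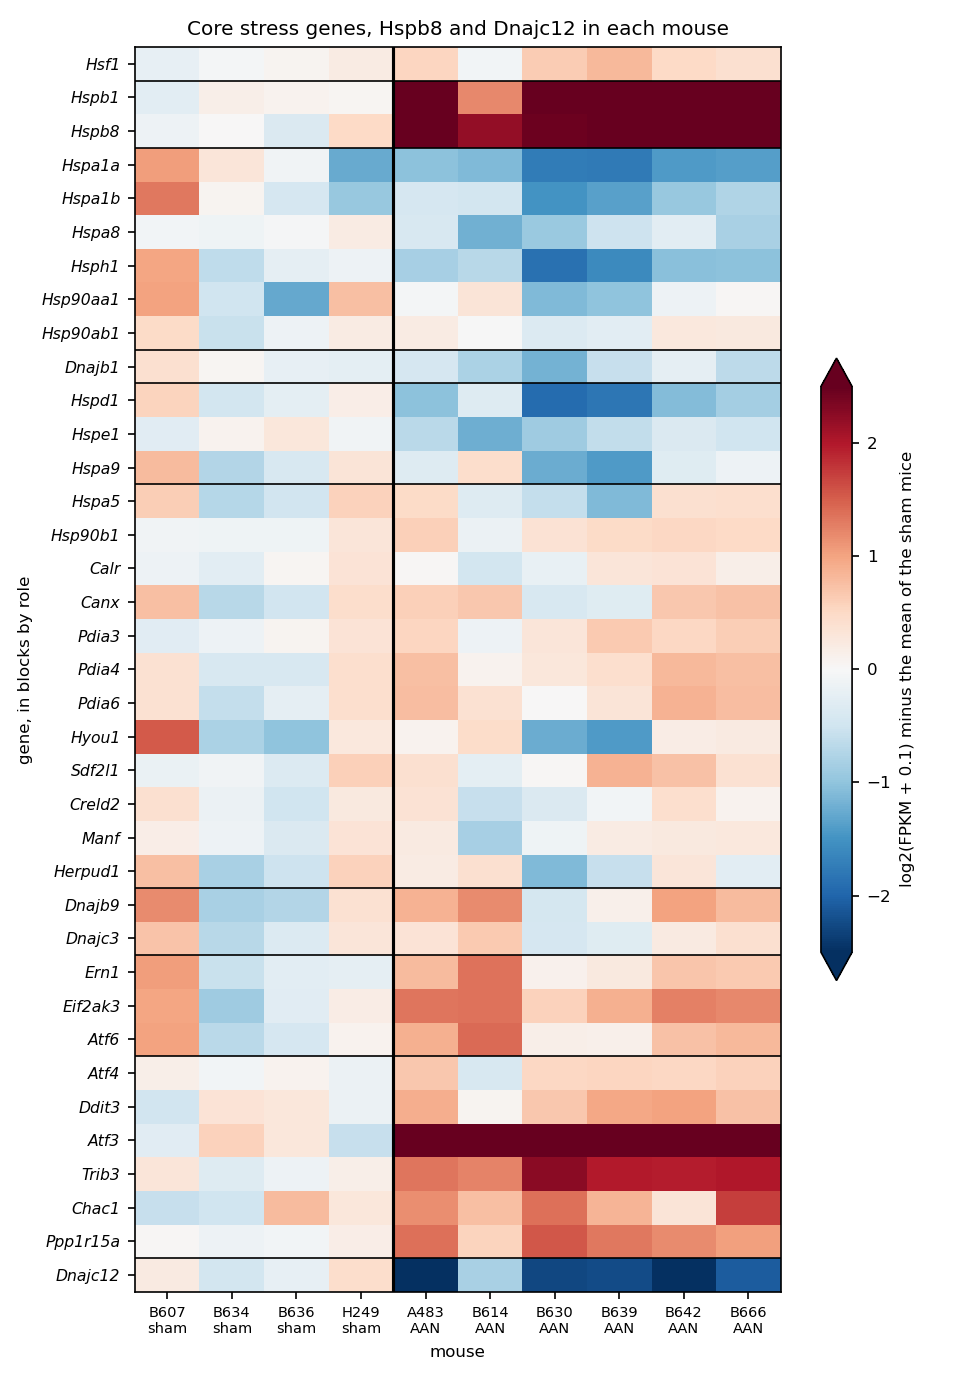
Log2(FPKM + 0.1) of the 35 core genes and of *Hspb8* and *Dnajc12* (rows, in blocks by role) in each of the 10 mice (columns, sham left of the heavy line), shown as the difference from the mean of the sham mice by colour. *Atf3* and *Hspb8* are dark red across the 6 AAN mice, and the columns of B607 and B614 are set off from their groups in the sensors, where their block medians are 1.01 and 1.35.

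A factor applied to every gene of a mouse leaves the difference between related genes within that mouse unchanged, apart from the pseudocount; quantile normalization is no such factor. Of 8 pairs compared by an exact permutation test (two-sided, 210 splits of the 10 mice, smallest possible p 0.00476), 1 passed after adjustment over the 8. Relative to *Atf4*, *Atf3* was 3.25 ± 0.30 log2 units higher in AAN than in sham mice (exact p = 0.00476, adjusted p = 0.0381), from a mean of -6.63 in sham mice to -3.38 in AAN mice, with no overlap. Under quantile normalization their log2 fold changes were 2.60 and 0.37. The inducible *Hspa1a* relative to the constitutive *Hspa8* moved by -0.72 ± 0.58 (exact p = 0.19, adjusted p = 0.381), and *Hsp90aa1* relative to *Hsp90ab1* by -0.34 ± 0.43 (exact p = 0.376, adjusted p = 0.502). *Hsp90b1* of the ER relative to the cytosolic *Hsp90ab1* moved by 0.37 ± 0.25, and *Hspa5* relative to mitochondrial *Hspa9* by 0.38 ± 0.25, with exact adjusted p of 0.381 and 0.389. For *Hspa5* and *Hspa9*, B614 was at -1.40, below the sham range of -0.82 to -0.40, and the other AAN mice were above that range, at -0.33 to 0.16. *Hspa1b* relative to *Hspa8* moved by -0.21 ± 0.59, *Calr* relative to *Canx* by -0.30 ± 0.41 and *Ddit3* relative to *Atf4* by 0.32 ± 0.23, with exact adjusted p of 0.695, 0.544 and 0.381.

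Of the 18 tested genes that make up the other J proteins and *Hspb11*, 6 rose and 1 fell, which is 33.3% and 5.56% beside 35.8% and 3.43% of all genes. Under the median of ratios 1 was higher and 4 were lower, beside 18.8% and 10.7% of all genes. The counts were the same under quantile normalization, beside 14.4% and 12.1% of all genes. *Dnajc12*, a J protein that helps fold the hydroxylases of aromatic amino acids, was at 39.0, 24.2, 29.0 and 45.3 FPKM in sham mice and 4.74 to 19.0 FPKM in AAN mice (median 6.92). The AAN mouse at 19.0 FPKM was B614, still below the lowest sham mouse. *Dnajc12* fell by 2.11 ± 0.34 on the log2 scale (limma adjusted p = 0.000223), the largest decrease among the members, and by 2.87 and 2.54 after the median of ratios and quantile normalization. *Dnajc22* was at 20.4 to 46.4 FPKM in sham mice and 10.7 to 22.6 FPKM in AAN mice, and its log2 fold change of -0.90 (limma adjusted p = 0.0118) reached 2-fold without B614 (-1.02, adjusted p = 0.00489). Without B614, *Hspb11* (0.95 with all mice, 1.08 without, adjusted p = 0.0059) and *Dnajc6* (-0.86 with all mice, -1.14 without, adjusted p = 0.0131) also passed both limits. The proximal tubule markers moved in the same direction, and their part in *Dnajc12* and *Dnajc22* was not tested.

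*Dnajc9*, a co-chaperone of histones, was at 6.62, 9.13, 9.05 and 9.52 FPKM in sham mice and 13.1 to 26.1 FPKM in AAN mice (median 23.5). The groups did not overlap, with B607 and B614 the lowest of their groups. *Dnajc9* rose by 1.32 ± 0.21 on the log2 scale (limma adjusted p = 0.000194), and by 0.56 (adjusted p = 0.0605) under the median of ratios. *Dnajc8* and *Dnajc17*, both linked to splicing, rose by 1.14 and 1.06 and *Dnajc27* by 1.40 on the log2 scale as deposited, each under the 2-fold limit after both other scalings, and *Dnajc17* also without B607 (0.91).

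*Dnajb13*, a J protein of the axoneme of cilia and sperm tails, was listed at 0 in all 4 sham mice and at 0.384, 0.186, 0.596, 1.09, 1.05 and 0.566 FPKM in the AAN mice. *Dnajb3*, which overlaps 9 other genes of the files, so that its fragments are uncertain, was at 0.109 to 0.6 FPKM in sham mice and 0.424 to 2.70 FPKM in AAN mice, and its increase of 1.77 ± 0.50 (limma adjusted p = 0.00867) did not pass under either other scaling. As deposited the 5 pseudogenes tested passed in neither direction, beside 35.8% of all genes higher and 3.43% lower. Under the median of ratios and under quantile normalization 2 were lower, beside 10.7% and 12.1% of all genes. Under quantile normalization these included *Dnaja1-ps* (-1.20, limma adjusted p = 0.00307), which was at most 0.197 FPKM in any mouse and at -0.10 as deposited. As deposited *Hspd1-ps3* had a log2 fold change of -0.97 ± 0.60 and *Dnajc19-ps* one of -0.76 ± 0.24, and under the median of ratios they were -1.73 (adjusted p = 0.0236) and -1.52 (adjusted p = 0.00094).

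Other genes of the same pathways were read from 10 lists, beside a background of 35.8% of all genes higher and 3.43% lower as deposited, and 18.8% and 10.7% under the median of ratios. Among 16 tested sensors and factors outside the members, 6 rose and none fell (median log2 fold change 0.89), and under the median of ratios 3 rose and none fell (median 0.19). *Casp12*, the caspase of the ER membrane, was at 0.116 to 0.216 FPKM in the sham group and at 2.51 to 7.17 FPKM in the AAN group, a log2 fold change of 4.13 ± 0.28 (limma adjusted p = 3.53e-07). The stress-induced chromatin protein *Nupr1* rose by 2.69 and *Eif2ak2*, the interferon-induced kinase PKR, by 2.02. *Xbp1*, the factor that IRE1 splices, was at 43.8, 24.9, 23.7 and 44.2 FPKM in sham mice and 28.2 to 51.6 FPKM in AAN mice, and its log2 fold change of 0.27 ± 0.25 did not pass (limma adjusted p = 0.352). Gene-level FPKM do not show its splicing.

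Of 22 other ATF4 targets tested, 10 rose and 2 fell, with a median of 0.70, and under the median of ratios 6 rose and 3 fell, with a median of -0.07. *Asns*, which makes asparagine, was at 0.534 to 0.679 FPKM in sham mice and 2.53 to 5.6 FPKM in AAN mice (log2 fold change 2.43 ± 0.24, limma adjusted p = 4.93e-06). The cytokine *Gdf15* rose by 2.56, the factor *Cebpb* by 2.09 and *Phgdh*, of serine synthesis, by 1.70. The mitochondrial serine enzyme *Shmt2* fell from 133 ± 10.8 to 46.3 ± 12.5 FPKM, a log2 fold change of -1.55 ± 0.19 (limma adjusted p = 2.51e-05), and *Cth*, of cysteine synthesis, by 1.59. *Psat1*, between *Phgdh* and the end of serine synthesis, was at -0.16 ± 0.33.

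In the ER folding and oxidation list, 5 of 23 genes rose and none fell (median 0.58), and under the median of ratios 2 rose and none fell (median -0.18). Those that rose included *Fkbp10* (2.43) and *Serpinh1* (1.72), both known for collagen folding, and *Tmx3* (1.5). *P4hb*, the main disulfide isomerase, was at 137 to 229 FPKM in sham mice and 124 to 195 FPKM in AAN mice and did not pass (-0.19 ± 0.19, limma adjusted p = 0.399). *Serpinh1* was at 29.9 to 57.2 FPKM in sham mice and 58.9 to 231 FPKM in AAN mice, where the summed fibroblast and myofibroblast markers were 28.8 to 44.1 FPKM in sham and 102 to 253 FPKM in AAN mice. The part of these cells was not tested.

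No gene passed both limits among the 15 genes of glycosylation and the lectin cycle (median 0.45, with *Ostc* at 0.90), the 17 of ER-associated degradation (median 0.21, with *Sel1l* at 0.84) or the 14 of the chaperonin TRiC and prefoldin (median 0.34, with *Vbp1* at 0.88). In the translocon and signal peptidase list 1 of 16 rose, *Spcs3* (1.20). Among 16 co-chaperones of Hsp90 and Hsp70, *Cryab* and *Tomm34* (1.44) rose. Under the median of ratios *Spcs3* (0.44) and *Tomm34* (0.68) were under 2-fold. In the heat shock factor list *Hsf2* and the HSF1-binding *Hsbp1* were at 0.45 and 0.33 and did not pass; *Mlf1* (2.57) rose and *Hsf2bp* (-1.24) fell, neither of which is itself a heat shock factor. In the mitochondrial list *Atf5*, the factor linked to the mitochondrial unfolded protein response, rose from 2.51 ± 0.744 to 9.01 ± 1.88 FPKM (1.82 ± 0.22, limma adjusted p = 2.5e-05) and the protease *Htra2* by 1.36, while the matrix unfoldase *Clpx* fell by 1.11, or by 0.94, under 2-fold, without B607. Of the 12 genes of that list, 2 rose and 1 fell as deposited, and 1 rose and 5 fell under the median of ratios.

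**Figure D4:**
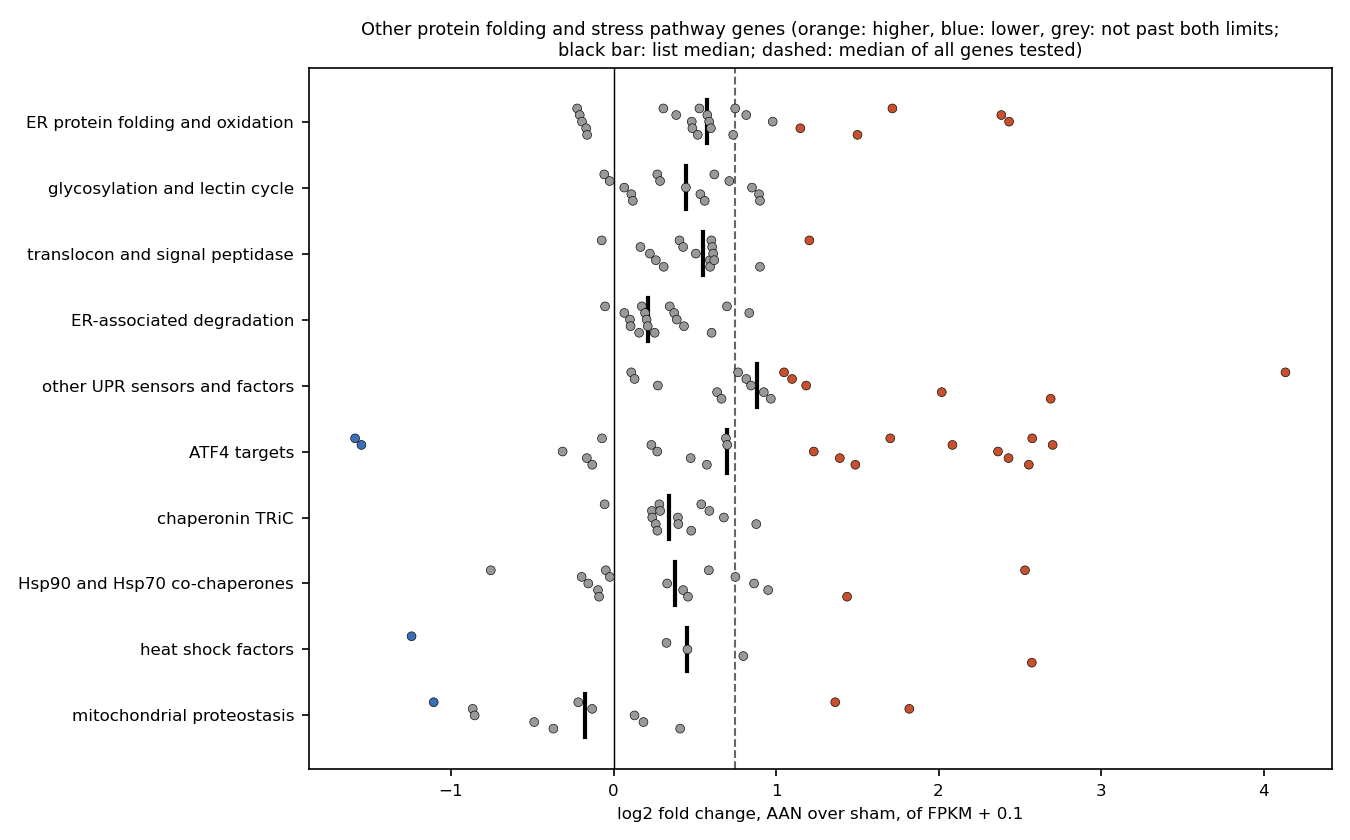
Log2 fold change in AAN over sham mice of FPKM + 0.1 (x axis) for each tested gene of the 10 lists (y axis; ER, endoplasmic reticulum; UPR, unfolded protein response), with the list median as a black bar and the median of all genes tested (0.75) dashed. Only the list of other sensors and factors has a median (0.89) to the right of the dashed line, and *Casp12* at 4.13 is the farthest point.

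Under the 3 scalings, *Atf3*, *Hspb8* and *Hspb1* stayed above 0 and *Dnajc12*, *Hspa1a*, *Hsph1*, *Hspd1*, *Hspa8* and *Hspe1* below 0 in each, whereas 15 of the 35 core genes, among them *Hsp90b1*, *Calr*, *Canx*, *Atf4* and *Ddit3*, lay above 0 as deposited and below 0 after the median of ratios.

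**Figure D5:**
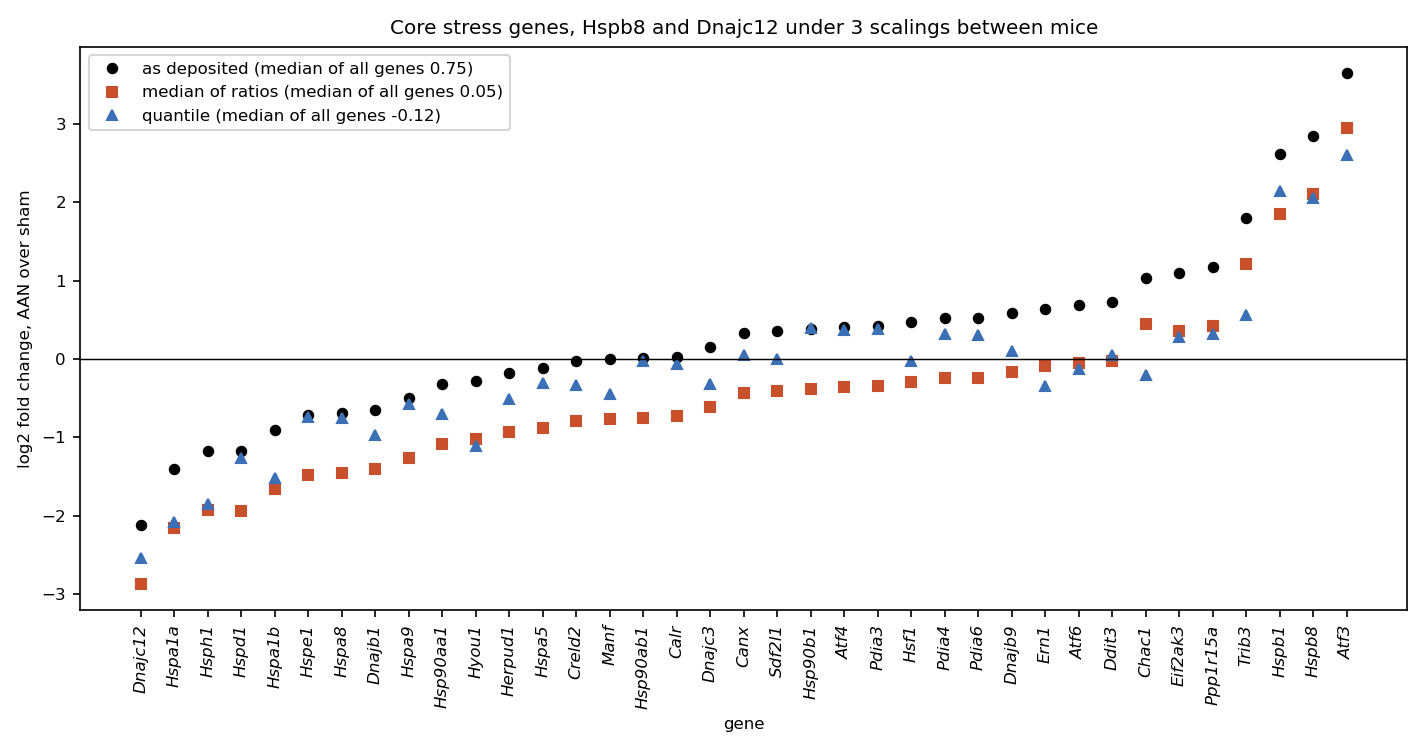
Log2 fold change in AAN over sham mice (y axis) of the 35 core genes, *Hspb8* and *Dnajc12* (x axis, ordered by the value as deposited) as deposited (black circles), after the median of ratios (orange squares) and after quantile normalization (blue triangles). The median of all genes tested is 0.75, 0.05 and -0.12 in the 3 series, and *Chac1* and the genes from *Hsp90ab1* to *Ddit3* change sign with the scaling.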

How the data were processed

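Cortex RNA of 4 sham and 6 AAN mice was measured by paired-end RNA-seq. Per the labels and the study's methods, the authors mapped cleaned reads to mm10 (GRCm38) with HISAT2 and computed FPKM with StringTie. The deposited FPKM values carry no further scaling between mice. The authors tested with edgeR, which needs counts, so limma 3.58.1 in R 4.3.3 was used here on log2(FPKM + 0.1), two-sided, with eBayes trend and robust, on the 17129 genes that averaged 0.1 FPKM or more. Fold changes on this scale understate changes of low genes. The Benjamini-Hochberg adjustment ran over every gene tested, and a call needed both a 2-fold change and an adjusted p no higher than 0.05. Each library is 1 mouse. The limma p-values set the difference between the groups against the spread between mice, with the variance of each gene moderated over all genes tested.

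The members, the 10 pathway lists, the 13 marker lists and the tests were chosen with earlier results of these data known. Genes named were 35 core genes, the members with the largest changes (without overlap, at least 5 FPKM in the higher group), those listed at 0 in a group, those with a mouse far from its group, and up to 3 genes per list with at least 5 FPKM in a group. *Xbp1*, *P4hb* and *Asns* were always named. *Hspb2*, *Hspa2*, *Dnajc22* and other members outside this rule were named after their values were seen. The list genes *Shmt2*, *Cth*, *Psat1*, *Mlf1* and *Hsf2bp* were also named outside this rule.

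Depth was recovered from low values (under 0.3 FPKM) of genes with 1 transcript, 95.6% of which were whole fragments within 0.05. Symbols and positions came from GENCODE on GRCm38, which holds 21650 of the 21792 genes; 142 had no symbol. Strand use in counting is not given in the sources used here, so overlapping genes are uncertain. Promoter windows came from RefSeq (GRCm38.p6) and matched 78 of 103 members. The fit was tested on simulated data. Alternatives were pseudocounts of 1 and 0.01, no filter or at least 1 FPKM, median of ratios, quantile normalization, an equal total without mitochondrially encoded genes, plain eBayes, no fold limit, each mouse left out, and B-tagged mice alone. Scripts ran in Python 3.11.15 with scipy 1.17.1, pandas 2.3.3, numpy 2.4.6 and matplotlib 3.10.9.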

Additional observations from a re-analysis of the deposited data

Results flagged for a closer look

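In 23 of 197 groups of values, 1 mouse stood so far from the rest of its group that its gap to the nearest mouse passed the 95% limit for the share of the range (Dixon). Chance gives about 1 in 20 groups, or 9.9. AAN mouse B614 accounted for 8, sham mouse B607 for 5, B634 and B630 for 3 each, H249 for 2 and B636 and B639 for 1 each. No cause was tested.

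In B614 the level was lower than in all other AAN mice for *Hspb1* (18.6 against 51.1 to 66.9 FPKM), *Atf4* (55.6 against 105 to 118 FPKM) and *Hsp90b1* (75.9 against 109 to 128 FPKM). It was higher for *Dnajc12* (19.0 against 4.74 to 7.84 FPKM), *Dnajc13* (11.4 against 4.42 to 6.34 FPKM), *Bag4* (9.32 against 3.34 to 5.43 FPKM), *Dnajc28* (2.35 against 0.658 to 1.16 FPKM) and *Dnajc6* (1.93 against 0.430 to 0.790 FPKM). In B607 the level was higher than in all other sham mice for *Bag3* (20.7 against 7.71 to 9.04 FPKM), *Hspa1l* (6.98 against 1.08 to 1.45 FPKM) and *Ern1* (3.59 against 1.12 to 1.44 FPKM). It was lower for *Dnajc9* (6.62 against 9.05 to 9.52 FPKM) and *Dnajb3* (0.109 against 0.577 to 0.6 FPKM).

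Among the other sham mice, H249 was high for *Hsp90b1* (104 FPKM) and *Bag1* (57.6 FPKM), and B636 for *Dnajc2* (5.58 FPKM). B634 was low for *Dnajb6* (2.58 FPKM) and high for the pseudogenes *Hspe1-ps6* (2.68 FPKM) and *Dnaja1-ps* (0.197 FPKM). Among the other AAN mice, B630 was low for *Bag5* (3.08 FPKM) and *Dnajb14* (2.46 FPKM) and high for *Hspe1-ps3* (0.466 FPKM). B639 was high for *Dnaja1-ps* (0.116 FPKM). The flagged values of *Dnaja1-ps* and *Hspe1-ps3* stand for very few fragments of short genes. B639 had the smallest library (13.4 M fragments), so its flag for *Dnaja1-ps* cannot be told from a difference in depth.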

How the results depend on the processing

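Of 16 members higher and 4 lower, a pseudocount of 1 left 6 and 4, the median of ratios 6 and 20, quantile normalization 4 and 15, and no fold limit 35 and 12. With a mouse left out, 14 to 18 were higher and 2 to 6 lower. The 2 were found without B607, where *Hspd1* and *Hsph1* were no longer lower; the 6 without B614. Without both mice, an alternative chosen after seeing the data, 17 were higher and 3 lower. Mice with B tags alone gave 16 and 5.

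Of 65 members above 0, the median of ratios turned 39 below 0 and quantile normalization 33. Through the alternatives 46 members were followed, of which 42 had a mean of at least 1 FPKM and so a value in that alternative. Among the 46, the median of ratios did so for *Hsf1* (-0.29), *Hsp90ab1* (-0.75), *Hsp90b1* (-0.38), *Calr* (-0.73), *Canx* (-0.43), *Pdia3* (-0.35), *Pdia4* (-0.24), *Pdia6* (-0.24), *Dnajb9* (-0.17), *Dnajc3* (-0.61), *Sdf2l1* (-0.40), *Ern1* (-0.086), *Atf6* (-0.053), *Atf4* (-0.36) and *Ddit3* (-0.031), and quantile normalization for *Hsf1* (-0.024), *Hsp90ab1* (-0.026), *Calr* (-0.065), *Dnajc3* (-0.32), *Ern1* (-0.34), *Atf6* (-0.13), *Chac1* (-0.21) and *Dnajb5* (-0.039). *Manf* turned to 0.019 with an equal total without mitochondrially encoded genes and to 0.067 in B-tagged mice. Without B607 and B614, *Hspa5* (0.13), *Hyou1* (0.085), *Creld2* (0.22) and *Manf* (0.22) were above 0.

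Over the mice left out in turn, *Hspa1b* ran from -1.22 to -0.46, *Hsp90aa1* from -0.75 to 0.017, *Hsp90ab1* from -0.17 to 0.18, *Hspa5* from -0.35 to 0.089, *Calr* from -0.059 to 0.15, *Dnajc3* from -0.081 to 0.39, *Hyou1* from -0.62 to 0.23, *Creld2* from -0.19 to 0.11, *Manf* from -0.12 to 0.17 and *Herpud1* from -0.45 to 0.075. The difference of *Hspa1b* and *Hspa8* ran from -0.60 to 0.25. That of *Atf3* and *Atf4* ran from 3.11 to 3.47, and 3.07 in B-tagged mice, with adjusted p of 0.0635 to 0.143, above the limit because fewer mice allow fewer splits. The cause of the other changes was not tested. No paired analysis was run, because the labels pair no sham mouse with an AAN mouse. Depth limits the genes under 1 FPKM most, such as *Trib3*, *Chac1* and *Dnajb13*.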
